A study of Mus musculus with 17 samples.

Results

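The 10 genes described here belong to the lineage decisions made in the blastocyst and were followed at the 2-cell stage, before the embryo forms those lineages. They are *Tead4*, *Yap1*, *Cdx2*, *Gata3* and *Eomes*, which regulate the trophectoderm, *Krt8* and *Krt18*, its keratins, *Fgf4*, a signal between lineages, and *Gata6* and *Sox17*, which regulate the primitive endoderm. The list was fixed by gene name, with no threshold on a measured value. Earlier results of these data were known when it was chosen. Each gene was read by exactly 1 probe set. The 10 genes stand for 10 of the 19935 genes that had a row of their own in the expression table. The question was which of them were already present in the 2-cell embryo, which were at background, and whether embryos of PJ34-treated sires differed from control embryos.

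The study followed embryos of males whose poly(ADP-ribose) metabolism had been perturbed before mating. Each of 17 wild-type embryos of the inbred strain 129SVE was collected at the 2-cell stage and hybridized alone to a mouse whole-transcript array. The 10 PJ34 embryos were fathered by 3 wild-type males that had received daily injections of PJ34, an inhibitor of PARP1 and PARP2, for 6 weeks (MTM11 with 4 embryos, MTM13 with 4 and MTM14 with 2), and the 7 control embryos by 3 saline-injected wild-type males (A with 1, B with 3 and D with 3), whom the labels also call untreated. All dams were untreated wild-type females, so no embryo was itself given the compound. Each embryo carries the name of its sire and a number. Embryos of 1 sire share that sire, and sire and treatment cannot be told apart at the level of a single family.

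In the blastocyst the outer cells become trophectoderm, the future placenta, and the inner cells then separate into epiblast and primitive endoderm, the future yolk sac. In outer cells the coactivator YAP1 enters the nucleus, binds the DNA-binding factor TEAD4 and turns on *Cdx2* and *Gata3*, whereas Hippo kinases keep YAP1 in the cytoplasm of inner cells. Inside, FGF4 from epiblast precursors acts through FGF receptors on neighboring cells that express GATA6, and SOX17 follows as those cells commit to primitive endoderm. The 2-cell embryo precedes all of these steps: it still holds transcripts made in the oocyte and has just begun to transcribe its own genome.

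The start regions of 5 of the genes are shown because they represent the different outcomes described here: *Yap1*, *Fgf4* and *Krt8* were above background in every embryo, *Krt18* was near its limit and *Cdx2* was at or below it in all embryos but 1. RefSeq start regions (assembly GRCm38.p6, 250 bases before to 50 after the start used, 5′ to 3′ on the gene's strand) were given for 7 of the 10 genes. For *Gata3* and *Yap1* the start used was not the outer end of the gene. The region of *Gata3* (chr2:9878551-9878850, minus strand) lay inside the gene, which begins at 9887953. The *Yap1* gene begins at 8004638, inside its region but not at the start used. Short motifs of TEAD factors and GATA factors, the TATA box and the GC box, 4 in all and spelled out after the sequences, were searched on both strands. Capitals mark every match.

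Yap1 promoter, chr9:8004547-8004846, minus strand: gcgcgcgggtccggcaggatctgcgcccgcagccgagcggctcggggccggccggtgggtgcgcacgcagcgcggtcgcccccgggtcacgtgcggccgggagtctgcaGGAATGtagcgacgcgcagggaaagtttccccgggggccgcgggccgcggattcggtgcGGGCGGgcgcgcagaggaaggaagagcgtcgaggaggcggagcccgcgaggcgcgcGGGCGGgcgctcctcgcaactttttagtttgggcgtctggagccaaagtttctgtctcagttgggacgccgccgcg
Fgf4 promoter, chr7:144861136-144861435, plus strand: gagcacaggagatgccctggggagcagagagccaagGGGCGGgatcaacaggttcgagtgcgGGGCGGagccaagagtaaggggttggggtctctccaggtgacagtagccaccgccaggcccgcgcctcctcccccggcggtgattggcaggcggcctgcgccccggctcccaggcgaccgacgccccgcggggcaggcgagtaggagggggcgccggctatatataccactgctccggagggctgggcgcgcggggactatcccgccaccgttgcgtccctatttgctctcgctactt
Krt8 promoter, chr15:102004293-102004592, minus strand: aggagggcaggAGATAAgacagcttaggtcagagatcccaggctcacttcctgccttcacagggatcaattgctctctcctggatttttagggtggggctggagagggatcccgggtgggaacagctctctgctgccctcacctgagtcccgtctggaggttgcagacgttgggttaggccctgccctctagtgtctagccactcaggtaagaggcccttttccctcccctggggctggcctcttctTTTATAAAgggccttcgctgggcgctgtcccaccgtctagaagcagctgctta
Krt18 promoter, chr15:102027966-102028265, plus strand: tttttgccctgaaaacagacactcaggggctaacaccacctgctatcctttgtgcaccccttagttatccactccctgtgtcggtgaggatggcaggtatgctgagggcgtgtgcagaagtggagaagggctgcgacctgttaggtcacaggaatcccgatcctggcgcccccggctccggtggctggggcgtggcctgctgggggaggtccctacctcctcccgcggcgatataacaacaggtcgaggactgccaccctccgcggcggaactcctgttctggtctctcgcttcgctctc
Cdx2 promoter, chr5:147307200-147307499, minus strand: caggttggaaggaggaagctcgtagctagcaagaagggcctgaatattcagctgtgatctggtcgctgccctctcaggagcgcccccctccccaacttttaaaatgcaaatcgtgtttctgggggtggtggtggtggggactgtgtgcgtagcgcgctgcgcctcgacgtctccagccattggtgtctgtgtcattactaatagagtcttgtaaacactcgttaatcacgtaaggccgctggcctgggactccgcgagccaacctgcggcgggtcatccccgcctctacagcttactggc

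The *Yap1* region held 1 motif of TEAD factors, written as GGAATG, found in 14.7% of 32851 mouse start regions of this length, and 2 GC boxes, written as GGGCGG and found in 35.7%. *Fgf4* held 2 GC boxes, as did *Gata3*. *Krt8* held 1 motif of GATA factors, searched as AGATAA and found in 11.2% of start regions. It also held the TATA motif, searched as TATAAA and found in 13.6%, once on each strand in 1 overlapping stretch. *Krt18*, its neighbor on chromosome 15, held none of the 4 motifs, and neither did *Cdx2* or *Eomes*. The share of G and C was 74% for *Yap1*, 69.7% for *Fgf4*, 67.3% for *Gata3*, 61.3% for *Krt18*, 58% for *Krt8*, 57.3% for *Cdx2* and 47.3% for *Eomes*, against a median of 52.7% over all start regions. A match is a description of these letters and not a bound site, and none of the 4 motifs was found in all of *Yap1*, *Fgf4* and *Krt8*.

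Levels are log2 intensities as deposited, normalized by the authors with the robust multichip average (RMA), so 1 unit is a doubling of signal. Array medians ranged from 6.12 to 6.23 and no 2 arrays held the same values, with correlations between embryos from 0.941 to 0.959. The probe sets of different genes respond differently, so levels were not ranked between genes. Instead, each gene was set against a background measured on the same array: 1209 probe sets of olfactory and vomeronasal receptors, a class of genes taken to be silent in the early embryo. A gene was called above background in an embryo where its level exceeded the 95th percentile of those receptor probe sets, a limit that lay between 6.10 and 6.34 over the 17 embryos. Of all 21780 probe sets with 1 gene, 37.5% were above the limit in all 17 embryos, 35.9% in none and 26.6% in some. Of the receptor probe sets themselves, 30 (2.48%) were above it in all 17 and 106 in some, so not all of them were without signal. The limit ran from 6.10 to 6.33 in control and from 6.14 to 6.34 in PJ34 embryos. The receptor probe sets had a median difference of -0.018 between PJ34 and control embryos, and 0 of them were called. At an unadjusted p of 0.05 in limma, 11 were higher and 42 lower, against 426 and 856 of all 21780 probe sets. The labelled stage was checked against its markers: 18 of 20 oocyte marker probe sets and 5 of 8 probe sets of genome activation were above background in all embryos. Only 8 of the 18 listed activation genes had a row, and the *Zscan4* genes were not among them. At an unadjusted p of 0.05 in limma, 0 activation probe sets were higher and 2 lower in PJ34 embryos. Of the oocyte probe sets 2 were higher and 1 lower (15%), and 0 of either list were called. Whether the groups differ in stage was not tested.

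Of the 10 genes, 4 were above background in all 17 embryos, namely *Tead4*, *Yap1*, *Krt8* and *Fgf4*, a share of 40% against the 37.5% of all probe sets. *Krt18* and *Gata6* lay at the limit, *Cdx2* and *Gata3* passed it in 1 embryo each, and *Eomes* and *Sox17* passed it in none. Within this set, *Tead4* and *Yap1* had signal above background in every embryo, and *Cdx2*, *Gata3* and *Eomes* did not. The share above background was close to that of all probe sets. Whether presence follows the order of these factors in trophectoderm specification was not tested.

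**Figure D1:**
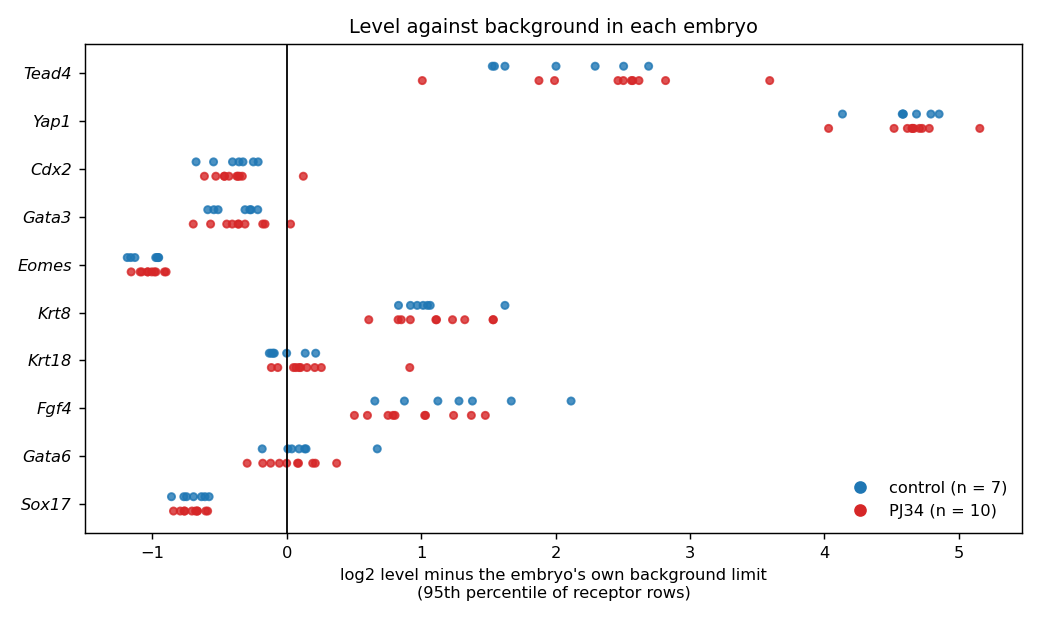
Log2 level of each gene minus the background limit of the same embryo (95th percentile of the receptor probe sets, vertical line at 0), 1 point per embryo, control in blue (n = 7) and PJ34 in red (n = 10). *Yap1* lies 4.03 to 5.16 above the limit, *Tead4*, *Krt8* and *Fgf4* lie above it in every embryo, *Krt18* and *Gata6* straddle it, and *Eomes* and *Sox17* lie below it throughout.

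The distance from the limit differed between these genes. *Yap1* lay 4.03 to 5.16 above it and exceeded every receptor probe set in every embryo. *Tead4* lay 1.01 to 3.59 above it, and both genes also passed the stricter limit of the 99th percentile (6.66 to 7.20) in all 17 embryos. *Fgf4* lay 0.50 to 2.11 above the usual limit and passed the stricter one in 14 embryos. *Krt8* lay 0.61 to 1.62 above it and passed the stricter one in 15. The 2 genes at the limit differed in the embryos that passed. *Krt18* passed in 10 embryos, 2 of 7 control and 8 of 10 PJ34, with distances from -0.13 to 0.92. *Gata6* passed in 11 embryos, 6 of 7 control and 5 of 10 PJ34, with distances from -0.29 to 0.67. The median distance was 0.07 for *Krt18* and 0.08 for *Gata6*, and at the stricter limit each passed in 1 embryo. Some embryos lay almost on the limit, such as B-3 for *Krt18* (-0.001) and B-1 (0.008) and MTM14-2 (-0.001) for *Gata6*. The split of passing embryos between the groups was not tested, and the share of all probe sets with such a split was not computed. At the 90th percentile (5.75 to 5.97) both passed in all 17. *Cdx2* passed only in MTM14-1, by 0.12, and *Gata3* only in MTM13-4, by 0.03. At the 90th percentile they passed in 7 and 9 embryos. *Eomes* stayed below the limit at distances from -1.19 to -0.90 and *Sox17* at distances from -0.86 to -0.58, and neither passed even at the 90th percentile. A level below the limit means only that the probe set was not distinguishable from most receptor probe sets on this array.

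Comparing all PJ34 with all control embryos, none of the 10 genes was called at an adjusted p of 0.1, the threshold of the study, in limma's moderated test with Benjamini-Hochberg adjustment over all probe sets. The same test called 0% of the 21780 probe sets. At an unadjusted p of 0.05, 5.89% of all probe sets and 0 of the 10 genes passed, and 0 passed in the plain analysis of variance that the study's methods use or in exact permutation tests over the 17 embryos. The differences of the 10 genes ranged from -0.36 for *Fgf4* to 0.35 for *Tead4*, with a median of 0.015 against -0.016 over all probe sets. An array pooled the RNA of a whole embryo, so a lower level in 1 of its cells cannot be told apart from less RNA in each. The labels do not say whether embryos of a sire came from 1 litter, so p-values measure the spread between these embryos.

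**Figure D2:**
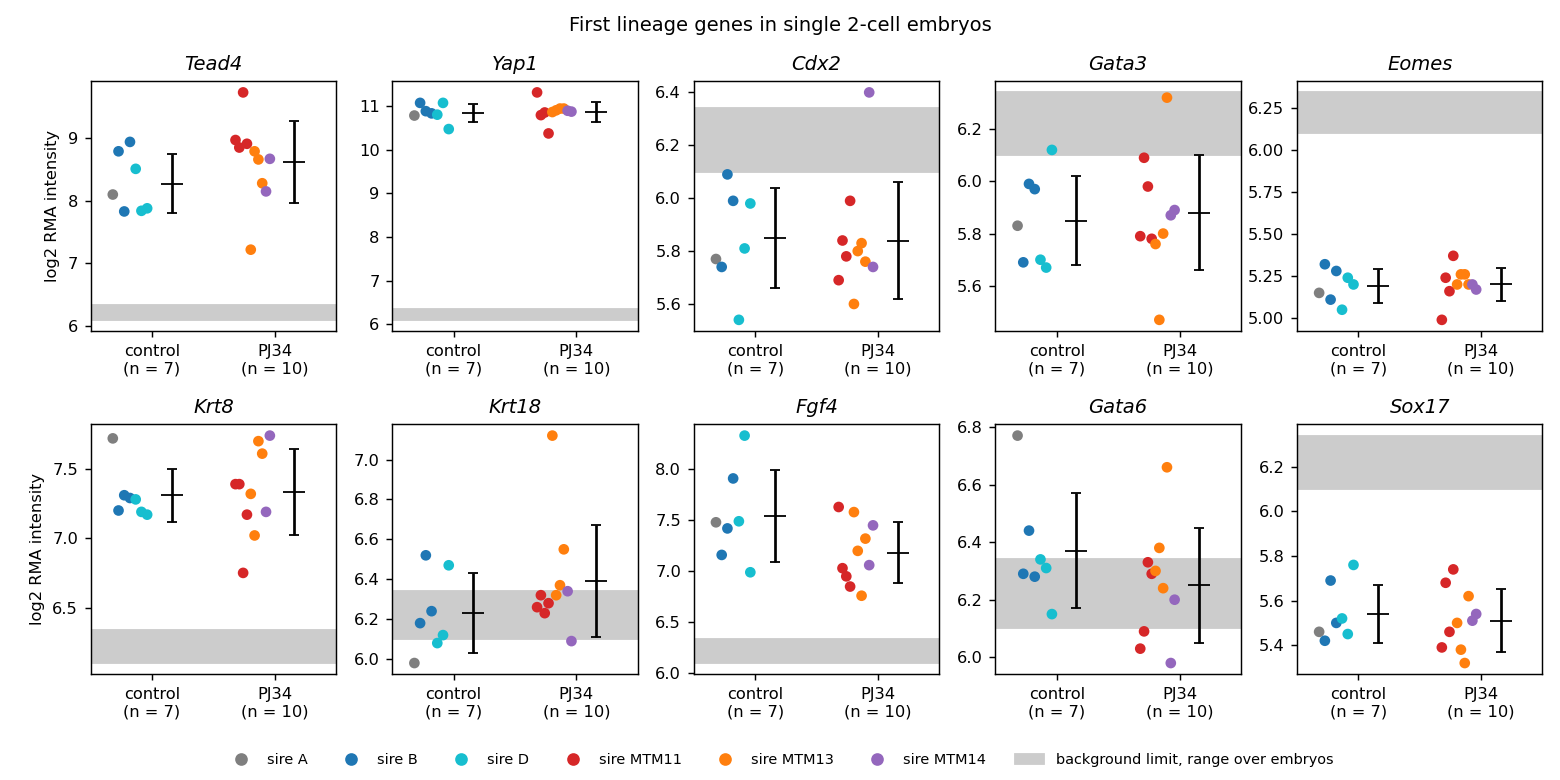
Log2 RMA intensity of each gene in each embryo, with points colored by sire, the mean ± SD of each group beside them, and in gray the range of the background limit over the 17 embryos. Axes differ between panels. The groups overlap for all 10 genes, and the highest embryo of its group stands apart for *Cdx2* (MTM14-1), *Krt8* (A-2) and *Krt18* (MTM13-1).

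*Tead4*, the DNA-binding partner of YAP1 and the earliest factor known to be required for trophectoderm, was the most variable of the genes between embryos. In the control embryos its level ran from 7.83 over a median of 8.10 to 8.94, and in the PJ34 embryos from 7.22 over a median of 8.73 to 9.73. Both the lowest and the highest embryo were PJ34 embryos of different sires, MTM13-1 at 7.22 and MTM11-3 at 9.73. The means were 8.27 ± 0.47 (SD, n = 7) for control and 8.62 ± 0.65 (SD, n = 10) for PJ34, a difference of 0.35 (95% interval -0.23 to 0.93) with an adjusted p of 0.904 in limma and an unadjusted p of 0.243 in the exact permutation test. The within-group SD of 0.59 lay at the 56.9th percentile of the 1409 probe sets within 0.5 of its level, so this spread was usual for a probe set of that intensity. The difference was 0.03 without the family of MTM11, 0.23 without MTM11-3 alone, 0.51 without MTM13-1 and 0.61 without the family of MTM13, and 0.54 and 0.21 without the control families of B and D.

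*Yap1*, the coactivator that the Hippo kinases restrain, was the steadiest gene among those above background. Control embryos ran from 10.47 over a median of 10.83 to 11.07 and PJ34 embryos from 10.37 over a median of 10.88 to 11.31. The group means were 10.84 ± 0.20 (SD, n = 7) and 10.87 ± 0.23 (SD, n = 10), a difference of 0.03 (95% interval -0.19 to 0.25, adjusted p of 0.977 in limma). Its within-group SD of 0.22 was at the 23.8th percentile of 780 probe sets of like level.

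The 3 downstream factors of the trophectoderm were at background in both groups, apart from MTM14-1 for *Cdx2* and MTM13-4 for *Gata3*. *Cdx2*, the homeobox factor of the lineage, ran from 5.54 over 5.81 to 6.09 in control and from 5.60 over 5.79 to 6.40 in PJ34 embryos. *Gata3*, which acts beside it, ran from 5.67 over 5.83 to 6.12 and from 5.47 over 5.84 to 6.32. *Eomes*, a T-box factor of the later trophectoderm, ran from 5.05 over 5.20 to 5.32 and from 4.99 over 5.20 to 5.37. The groups overlapped almost fully for all 3. Their differences were -0.003 for *Cdx2*, 0.02 for *Gata3* and 0.01 for *Eomes*, with limma adjusted p of 0.998, 0.982 and 0.985. Near background, a difference in log2 intensity understates a difference in transcript.

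*Krt8* and *Krt18* encode the type II and type I keratins that pair in the filaments of simple epithelia such as the trophectoderm. *Krt8* ran from 7.17 over a median of 7.28 to 7.72 in control embryos and from 6.75 over 7.35 to 7.74 in PJ34 embryos. Control embryo A-2, the only embryo of its sire, lay apart at 7.72 and the other 6 lay between 7.17 and 7.31. The means were 7.31 ± 0.19 (SD, n = 7) and 7.33 ± 0.31 (SD, n = 10), a difference of 0.02 (95% interval -0.25 to 0.29, adjusted p of 0.989 in limma). A pseudogene, *Krt8-ps*, is annotated, and whether the probe set also reads it was not tested. *Krt18* ran from 5.98 over 6.18 to 6.52 in control and from 6.09 over 6.32 to 7.12 in PJ34 embryos. The highest embryo was MTM13-1, and 9 of 10 PJ34 embryos lay above the control mean (8 of 10 for *Yap1*, with a difference of 0.03). The means were 6.23 ± 0.20 (SD, n = 7) and 6.39 ± 0.28 (SD, n = 10), a difference of 0.16 (95% interval -0.10 to 0.41) with an adjusted p of 0.904 in limma and an unadjusted p of 0.231 in the exact permutation test. The difference was 0.08 without MTM13-1, 0.02 without the family of MTM13 and 0.24 without the family of MTM11.

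Keratins are also made by the epithelium of the oviduct, from which the embryos come, so its markers were read in the same embryos. Of 10 oviduct marker probe sets, 3 (*Epcam*, *Wt1* and *Pax8*) were above background in all embryos, 4 in some and 3 (*Krt19*, *Muc1* and *Muc16*) in none. The mean log2 level of the list ran from 5.77 to 6.01 in control and from 5.75 to 6.29 in PJ34 embryos. It was 5.87 in MTM13-1, the embryo with the highest *Krt18*, and 5.77 in A-2, where *Krt8* stood apart and the other control embryos ran from 5.82 to 6.01. Of the cumulus markers 1 of 14 probe sets (*Amhr2*), and of the blood markers 1 of 9 (*Slc4a1*), was above background in all embryos. The cumulus list mean ran from 5.52 to 5.70 in control and 5.51 to 5.72 in PJ34 embryos and the blood list mean from 5.24 to 5.53 and 5.27 to 5.50, and the part of other cells in the levels of the 10 genes was not tested.

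*Fgf4*, the ligand that epiblast precursors send to the future primitive endoderm, had the lowest p of the 10 genes. Control embryos ran from 6.99 over a median of 7.48 to 8.33 and PJ34 embryos from 6.76 over 7.13 to 7.63. Of the PJ34 embryos 8 of 10 lay below the control mean, as for *Cdx2* with a difference of -0.003. Below the whole control range lay 3, as for *Sox17* with a difference of -0.03. The share of all probe sets with such counts was not computed. The highest value of *Fgf4* was that of control embryo D-2. The means were 7.54 ± 0.45 (SD, n = 7) and 7.18 ± 0.30 (SD, n = 10), a difference of -0.36 (95% interval -0.73 to 0.01, PJ34 1.28-fold lower). Its adjusted p was 0.846 in limma and its unadjusted p 0.0666 in the exact permutation test, so the difference did not pass. Against the same 7 control embryos, which the 3 comparisons share, the families lay at -0.43 for MTM11, -0.33 for MTM13 and -0.29 for MTM14. Sire means were 7.48, 7.50 and 7.61 for control and 7.11, 7.22 and 7.25 for PJ34, which do not overlap. This held for 1 of the 10 genes and for 10.2% of all probe sets. On sire means *Fgf4* differed by -0.33 with an unadjusted p of 0.00361 and an adjusted p of 0.736 in limma, and with the sire as a random block the limma values were 0.0433 and 0.697. Its unadjusted p was also below 0.05 in 5 of the 17 limma fits that left out 1 embryo. Without D-2 the difference was -0.23.

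*Gata6*, a zinc-finger factor of the primitive endoderm that precedes *Sox17*, ran from 6.15 over a median of 6.31 to 6.77 in control embryos and from 5.98 over 6.26 to 6.66 in PJ34 embryos. The highest embryo was control embryo A-2, and 8 of 10 PJ34 embryos lay below the control mean (8 also for *Cdx2*, with a difference of -0.003). The means were 6.37 ± 0.20 (SD, n = 7) and 6.25 ± 0.20 (SD, n = 10), a difference of -0.12 (95% interval -0.32 to 0.08, adjusted p of 0.907 in limma). The difference was -0.05 without A-2 and -0.23 on sire means, and it was -0.21 without the family of MTM13, -0.19 without that of D and -0.08 without that of MTM11 or of MTM14. *Sox17* ran from 5.42 over 5.50 to 5.76 and from 5.32 over 5.51 to 5.74, with a difference of -0.03 (95% interval -0.17 to 0.12, adjusted p of 0.967 in limma) at a level below the background limit.

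**Figure D3:**
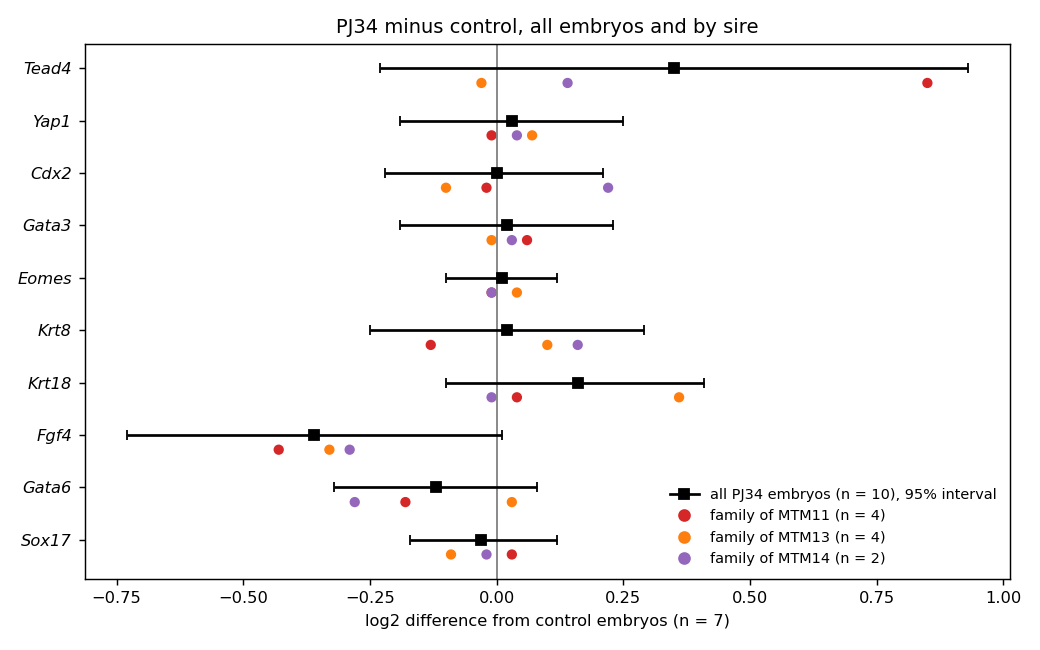
Log2 difference of PJ34 from control embryos for each gene. Black squares with bars show all 10 PJ34 embryos with the 95% interval of limma's fit, and colored points show each sire's family against the same 7 control embryos. All 10 intervals include 0. The family of MTM11 lies at 0.85 for *Tead4* and that of MTM13 at 0.36 for *Krt18*, and the 3 families lie between -0.43 and -0.29 for *Fgf4*, all against the same controls.

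The sires were compared because the study treated single males. Between the 3 PJ34 sires none of the 10 genes was called in limma's moderated F test, which called 0.00918% of all probe sets, and none passed an unadjusted p of 0.05, which 4.8% of all probe sets did. The lowest values were those of *Gata6* and *Tead4*, with unadjusted p of 0.0671 and 0.0716 and an adjusted p of 0.999 for each. Plain analysis of variance between the PJ34 sires also called 0. Between the 3 control sires, which differ in no treatment, 0.271% of all probe sets and none of the 10 genes were called, and 5.71% of all probe sets and 1 gene, *Gata6*, passed the unadjusted threshold (adjusted p of 0.815). Sire A had 1 embryo, A-2, whose *Gata6* level of 6.77 stood against sire means of 6.34 and 6.27, so that value rests on a single embryo. Each PJ34 family was then set against the 7 control embryos. Over all probe sets and families 0.0199% of tests were called and 5.25% passed an unadjusted p of 0.05. Of the 30 tests on the 10 genes 0 were called and 2 passed the unadjusted threshold. *Tead4* in the family of MTM11 had a mean of 9.11 ± 0.42 (SD, 4 embryos), 0.85 above control (95% interval 0.19 to 1.50, adjusted p of 0.863 in limma), with its 4 embryos at 8.97, 8.85, 9.73 and 8.91. *Krt18* in the family of MTM13 had a mean of 6.59 ± 0.37 (SD, 4 embryos), 0.36 above control (95% interval 0.06 to 0.66, adjusted p of 0.954 in limma). Of its 4 embryos 3 lay between 6.32 and 6.55, and without MTM13-1 the difference of that family was 0.18.

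**Figure D4:**
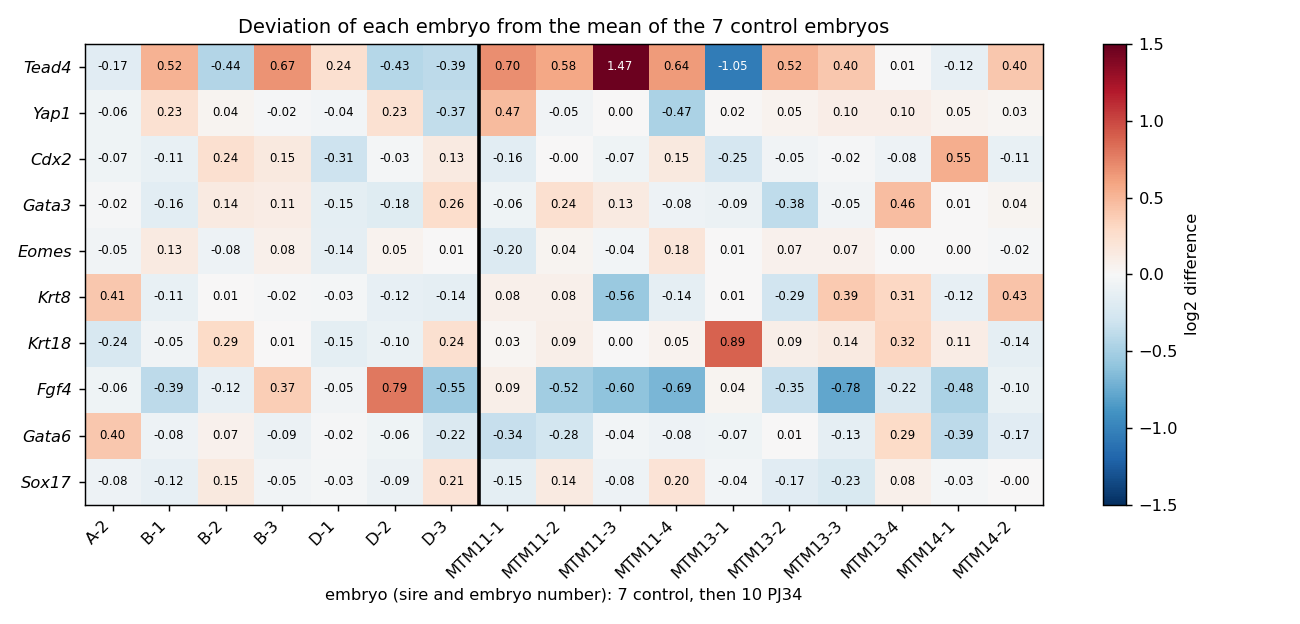
Log2 difference of each embryo (columns, 7 control then 10 PJ34) from the mean of the 7 control embryos for each gene (rows), with the value printed in each cell. The strongest deviations are *Tead4* in MTM11-3 (1.47) and MTM13-1 (-1.05) and *Krt18* in MTM13-1 (0.89), and no embryo deviates in all genes.

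The study compared embryos one by one, so single PJ34 embryos were tested against the mean of the 7 controls, whose spread served as the error. Over all probe sets and embryos this called 0.581% of tests, and 6.21% passed an unadjusted p of 0.05. Of the 100 tests on the 10 genes 0 were called and 6 passed the unadjusted threshold. *Krt18* in MTM13-1 had the lowest p, 0.89 above the control mean with an adjusted p of 0.191 in limma. *Tead4* was 1.47 above the control mean in MTM11-3 and 1.05 below it in MTM13-1 (adjusted p of 0.601 and 0.764 in limma). The others were *Krt8* in MTM11-3 (-0.56), *Gata3* in MTM13-4 (0.46) and *Cdx2* in MTM14-1 (0.55). With each array centred on its median, *Krt18* in MTM13-1 passed at an adjusted p of 0.0905 in limma. With the spread pooled over the families it had an adjusted p of 0.687. The same was done for single control embryos against the remaining 6, as the background for such deviations. This called 0.397% of all tests, and 5.7% passed an unadjusted p of 0.05. Of the 70 tests on the 10 genes 0 were called and 4 passed the unadjusted threshold: *Krt8* (0.48) and *Gata6* (0.47) in A-2, *Fgf4* in D-2 (0.92) and *Yap1* in D-3 (-0.44). Pooled over genes, these departures overlapped in size with those of single PJ34 embryos, but the genes mostly differed. By gene, the largest control departure was 0.34 for *Krt18*, 0.78 for *Tead4*, 0.31 for *Gata3*, -0.36 for *Cdx2* and 0.48 for *Krt8*. Each was smaller in size than the PJ34 departures listed above for that gene. For *Fgf4* and *Gata6* the largest was in a control embryo, 0.92 against -0.78 and 0.47 against -0.39. For *Yap1* the largest were -0.44 in control and 0.47 in PJ34 embryos.

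The genes around the 10 were described from lists of pathway members. In the list of Hippo signaling and trophectoderm regulators, 13 of 28 probe sets (46.4%, against 37.5% of all probe sets) were above background in all embryos and 6 in none. The YAP1 paralogue *Wwtr1* was above background in all 17, at 7.40 ± 0.41 in control and 7.21 ± 0.27 in PJ34 embryos. Of the TEAD paralogues, *Tead3* was above in 15 embryos and *Tead2* in 3, and the 2 probe sets of *Tead1* disagreed, with 17 and 4. *Tfap2c*, an activator of *Cdx2*, was above in all 17, at 7.65 ± 0.51 and 7.66 ± 0.58, whereas *Elf5*, a factor of later trophoblast, *Lats2*, a Hippo kinase, and *Amot*, which ties YAP1 to cell junctions, were above in none. Other Hippo genes of the list did pass. Named after their values were seen, *Lats1* was above in 15 embryos, *Amotl1* in 16, and *Amotl2*, *Stk4*, *Sav1*, *Nf2* and *Mob1b* in 17. Of this list 0 probe sets were called, and 1 higher and 3 lower passed an unadjusted p of 0.05, a share of 14.3% against 5.89% of all probe sets, of which 426 were higher and 856 lower. The higher one, *Id2*, an inhibitor of basic helix-loop-helix factors, was above background in 16 embryos, at 6.57 ± 0.38 (SD) in control and 7.60 ± 0.82 (SD) in PJ34 embryos, a difference of 1.03 with an adjusted p of 0.814 in limma. Of the lower ones, the kinase cofactor *Mob1a* had a difference of -0.57, the chromatin organizer *Satb1* one of -0.23 and *Vgll4*, a TEAD cofactor above background in no embryo, one of -0.17, each with an adjusted p of 0.843 in limma. *Id2* and *Vgll4* were named after their values were seen.

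Among the epithelial genes of the trophectoderm, 16 of 26 probe sets (61.5%) were above background in all embryos, among them *Cdh1*, the adhesion molecule E-cadherin, at 7.92 ± 0.25 in control and 8.10 ± 0.43 in PJ34 embryos. Again 0 were called, and 1 higher and 2 lower passed the unadjusted threshold, a share of 11.5% against 5.89% of all probe sets. *Prkci*, an atypical protein kinase C of the apical domain, had a difference of 0.68 (95% interval 0.16 to 1.20, adjusted p of 0.823 in limma). Both lower probe sets were those of *Rhoa*, a regulator of the actin cytoskeleton, with differences of -0.29 and -0.19 and an adjusted p of 0.814 for each in limma.

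In the list of FGF receptors and ERK signaling, 15 of 25 probe sets (60%) were above background in all embryos, 0 were called, and 0 higher and 2 lower passed the unadjusted threshold, a share of 8% against 5.89% of all probe sets. The lower of the 2 in p was *Sos2*, an exchange factor that activates RAS, above background in 14 embryos and named after its value was seen, with a difference of -0.52 and an adjusted p of 0.814 in limma. Of the FGF receptors, *Fgfr1* was above background in all 17 embryos and *Fgfr2* in none. *Fgfr1* stood at 6.96 ± 0.30 in control and 6.74 ± 0.13 in PJ34 embryos (difference of -0.22, adjusted p of 0.843 in limma). *Fgfr3* was above in all 17 and *Fgfr4* in 14, both named after their values were seen. The primitive endoderm list had 10 of 26 probe sets (38.5%) above background in all embryos and 11 in none, and 0 passed either threshold. *Gata4*, the partner of *Gata6* in that lineage, was above background in all 17 embryos at 8.82 ± 0.58 and 8.84 ± 0.37, in contrast to *Gata6* with 11 embryos, while *Pdgfra*, an early surface marker of the lineage, was above in 1. Of the paralogues of the 10 genes 13 of 27 probe sets (48.1%) were above background in all embryos, and 0 passed either threshold. Median differences of these 5 lists lay between -0.020 and 0.058, against -0.016 over all probe sets.

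Over all 17 embryos no correlation between genes that act together passed its test. Over the 17 embryos, the keratin partners *Krt8* and *Krt18* had a Pearson r of -0.06 and a Spearman rho of -0.01 (unadjusted permutation p of 0.799 and 0.966). *Krt18* was above background in only 10 of these embryos, so this pair also holds a gene at the limit. *Tead4* and *Yap1* had an r of 0.07 and a rho of -0.01 (permutation p of 0.793 and 0.980). For the 2 pairs with genes at background, *Cdx2* with *Gata3* had an r of 0.24 and a rho of 0.38 (permutation p of 0.349 and 0.129), and *Gata6* with *Sox17* an r of -0.00 and a rho of -0.06 (permutation p of 0.990 and 0.817). Adjusted over the 4 pairs, the lowest value was 0.516. Without the 2 embryos farthest from the median of the first gene, r was -0.03, 0.12, 0.30 and -0.04 in the same order. Within groups, *Krt8* and *Krt18* had an r of -0.49 in the 7 control and 0.04 in the 10 PJ34 embryos, and *Tead4* and *Yap1* one of 0.24 and -0.04. *Cdx2* and *Gata3* had an r of 0.80 in the control embryos (permutation p of 0.0372, and 0.149 adjusted over the 4 pairs) and -0.01 in the PJ34 embryos, and *Gata6* and *Sox17* one of -0.31 and 0.14.

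For the 4 genes above background in all embryos, the probe sets with the most similar pattern over the 17 embryos were looked up as a description. *Tead4* was closest to *A630072M18Rik* (r of 0.80), *Rbmx2* and *Taf8* (both 0.78). *Yap1* was closest to *Olfr283* (0.81), *Calr4* (0.77) and *Ceacam12* (0.75), *Krt8* to *Raver2* (0.80), *Ppp2r5d* (0.78) and *Knl1* (0.77), and *Fgf4* to *Tut4* (0.89), *Dcbld1* (0.81) and *4930447C04Rik* (0.77). Several of these lay at background, among them *Tut4* and *Ceacam12* in all embryos. A typical probe set above background found its closest neighbor at an r of 0.83 (median of 8161, 5th to 95th percentile 0.76 to 0.96). The closest gene of each of the 4 lay within that range, and below the median except for *Fgf4*. The range does not apply to the next closest genes named.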

How the data were processed

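The 17 embryos were assigned to group and sire from their labels. RNA of each embryo was amplified with a whole-transcriptome kit and hybridized to a GeneChip Mouse Gene 1.0 ST array. The authors deposited log2 values made with RMA (background correction, quantile normalization, summary of probes to probe sets) in Partek Genomics Suite. Software versions, and the assembly behind the probe sets, were not given in the sources used here. Quantile normalization gives all arrays nearly the same distribution, so a shift of the whole transcriptome would not be seen.

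The values were used as deposited. Of 28815 probe sets, 21780 carried 1 gene symbol (19935 genes) in the platform annotation and were tested, 1605 carried several and 5430 none. A RefSeq table on GRCm38.p6 gave current symbols by gene ID (21689 matched). Tests were limma 3.58.1 (R 4.3.3, lmFit and eBayes, two-sided) with Benjamini-Hochberg adjustment over all tested probe sets and a threshold of 0.1. Beside them stand exact permutation tests over all 19448 ways to divide the embryos and, for 4 gene pairs, permutation tests with 100000 resamples (scipy 1.17.1), all two-sided. Background was the 95th percentile of 1209 receptor probe sets (Olfr, Vmn1r, Vmn2r) per embryo. The limma steps were tested on simulated data. Arrays have no read depth. The median standard error of a group difference over all tested probe sets was 0.092, and among the 10 genes it was 0.27 for *Tead4*. These come from the fit that counts each embryo as a unit. PJ34 was given to sires, of which each group had 3, so they do not measure precision between treated males.

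All 10 genes were named. Of the pathway lists, up to 2 genes per list and direction with the lowest unadjusted p below 0.05 and above background in all embryos were named, with Wwtr1, Tead1, Tead2, Tead3, Lats2, Amot, Tfap2c, Elf5, Gata4, Pdgfra, Fgfr1, Fgfr2 and Cdh1 always, and the 3 genes most like each of the 4 genes above background. The genes and lists were chosen with earlier results of these data known. Alternatives were the sire as a random block, sire means, median-centred arrays, all probe sets, a filter on dim probe sets, plain analysis of variance, limma with trend and robust settings, other background limits, and leaving out each embryo or sire.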

Additional observations from a re-analysis of the deposited data

Results flagged for a closer look

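In 3 of the 20 sets of a gene in a group, the highest embryo lay apart from the others by Dixon's test at the 95% level, which chance alone gives in about 5% of such sets. *Krt18* was 7.12 in PJ34 embryo MTM13-1, against at most 6.55 in the other PJ34 embryos. In the same embryo the mean of the oviduct markers was 5.87 (other PJ34 embryos 5.75 to 6.29), *Epcam* was 8.18 (7.31 to 8.80), *Krt19* 4.95 (4.89 to 5.20) and the array median 6.15 (6.12 to 6.23). *Krt8* was 7.72 in control embryo A-2, against at most 7.31 in the other control embryos. That embryo had the lowest array median of the control group at 6.12 (others 6.13 to 6.22), *Krt7* at 6.16 (6.34 to 6.68) and *Epcam* at 7.30 (7.38 to 8.38). Of the 17 embryos A-2 had the highest share of probe sets above background (52.7%). Its 95th and 99th percentiles of the receptor probe sets were the lowest (6.10 and 6.66). *Cdx2* was 6.40 in PJ34 embryo MTM14-1, its only embryo above background, against at most 5.99 in the other PJ34 embryos. The array median of that embryo was 6.14 and its mean of the blood markers 5.50 (other PJ34 embryos 5.27 to 5.48). It also had the lowest share of probe sets above background of the 17 embryos (47.2%) and the highest 99th percentile of the receptor probe sets (7.20). The part of these measures in the 3 values was not tested.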

How the results depend on the processing

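Over 424 alternatives to 20 results, 382 kept the direction and the side of the threshold or, for counts, stayed within 1.5 times, 40 reversed the sign of a difference that passed no test, and 2 counts moved by more than 1.5 times. *Tead4*, *Krt18*, *Fgf4* and *Gata6* kept their direction in all 30 alternatives each, and no gene was called in the group comparison in any (lowest adjusted p of 0.697, for *Fgf4* with the sire as a random block). The number of genes above background fell from 4 to 2 at the 99th percentile of the receptor probe sets and was 6 at the 90th percentile and 6 when 9 of 17 embryos were enough. With median-centred arrays 1 single-embryo test was called instead of 0, *Krt18* in MTM13-1. Counting genes above background in the 7 control embryos alone, an alternative chosen after seeing the data, gave 4 again. On sire means the difference was 0.051 for *Cdx2* and -0.049 for *Krt8*, and with centred arrays 0.005 for *Cdx2*. Leaving out a sire turned *Yap1* to -0.019 (D), *Gata3* to -0.001 (MTM11), *Eomes* to -0.011 (D) and -0.007 (MTM13), *Sox17* to 0.011 (MTM13), *Cdx2* to 0.067 (B), 0.008 (MTM11) and 0.061 (MTM13), and *Krt8* to -0.011 (B), -0.054 (D), -0.037 (MTM13) and -0.015 (MTM14). Leaving out 1 embryo gave ranges from -0.033 to 0.085 for *Yap1*, -0.065 to 0.037 for *Cdx2*, -0.027 to 0.066 for *Gata3*, -0.013 to 0.034 for *Eomes*, -0.026 to 0.088 for *Krt8* and -0.053 to 0.007 for *Sox17*. The cause of these moves was not tested. The filter on dim probe sets gave no value for *Cdx2*, *Gata3*, *Eomes* and *Sox17*, since they did not pass it. The correlation within sires in the random-block fit was -0.0377. No paired analysis was possible because embryo numbers are counted within sires and the groups share no sire.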
